A study of Mus musculus with 12 samples.

Results

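The MAP kinase phosphatases Dusp1, Dusp2, Dusp4, Dusp5, Dusp6 and Dusp10, the Sprouty genes Spry1 and Spry2 and the related Spred1 and Spred2 were examined in mouse natural killer (NK) cells. These 10 genes were chosen by symbol from the 55487 features of the deposited expression table, and all 10 were among the 12364 genes that passed the filter on low values. RNA was sequenced from NK cells of strain B6.129S4-Ifngtm3.1Lky/J with the genotype mut/mut, in which YFP, a fluorescent protein, reports on the gene of interferon gamma. All 12 samples bear HD IL-15 in their titles, and IL-15 is a cytokine that sustains NK cells. Unstimulated cells formed 1 group of 4 samples. Cells given anti-NK1.1, an antibody against an activating NK receptor, for 6 h were separated into 4 samples without (YFP-) and 4 samples with (YFP+) reporter signal. Reporter fluorescence marks cells that switched on the locus and is no measure of secreted protein. The ages of the mice and pooling of animals are not given in the sources used here. The samples of each group carry the labels f2, m2, m3 and m4, and values are listed in that order throughout.

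MAP kinases are switched on by phosphorylation of a threonine and a tyrosine in their activation loop. MAP kinase phosphatases remove both phosphates. Dusp1, Dusp2, Dusp4 and Dusp5 encode nuclear enzymes, most of which are known as early response genes, while Dusp6 encodes a cytoplasmic enzyme that acts on ERK, and Dusp10 encodes one that prefers p38 and JNK. Sprouty and Spred proteins act further up, at the level of receptors, Ras and Raf, and restrain the ERK branch. In NK cells, activating receptors that couple to tyrosine kinases lead to ERK activation, which takes part in degranulation and cytokine production. These proteins are widely known as feedback regulators, since several of their genes are themselves switched on by the pathways they restrain.

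Library totals ran from 32.1 to 54.2 M reads (M, mega), so that 3 reads corresponded to 0.0553 to 0.0933 CPM (reads per M reads of the library). The labels do not say whether samples of a group came from separate animals or cultures, so p-values measure the spread between these samples, which may be technical. Each of 10 NK markers, among them Ncr1, Eomes and Prf1, was above 1 CPM in every sample, but most moved with the groups. In YFP+ against unstimulated samples Ncr1, Klrd1, Eomes, Gzma and Itga2 were lower (-1.01, -1.22, -1.41, -0.96 and -1.32 in log2). Klrk1, Tbx21 and Cd160 were higher (0.33, 1.34 and 1.66). All of these had a limma adjusted p under 0.05, and Nkg7 and Prf1 did not. The summed level of the 10 NK markers, with Gzma the highest, was 13353 to 16004, 9866 to 12366 and 10380 to 14401 CPM in the unstimulated, YFP- and YFP+ groups, the order of the ranges that follow. Features resembling ribosomal RNA took 27.4 to 35.3%, 15.9 to 30.3% and 13.7 to 29.8% of the reads, and m3 was the highest of both stimulated groups. The part of these differences in the results below was not tested, apart from the alternative that leaves these features out.

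Markers of other cell types were present at lower levels, and several moved with the groups. The 8 T cell markers summed to 52.8 to 113, 68.1 to 93.9 and 63.9 to 96.1 CPM. Within them Trac rose from 7.43 ± 0.733 CPM (SD, n = 4) to 34.3 ± 6.28 and 48.4 ± 5.85 (2.19 and 2.7 in log2, limma adjusted p = 1.9e-07 and 1.0e-08), while Cd3g and Cd3d were lower in YFP+ than in unstimulated samples (-1.22 and -0.77, limma adjusted p = 0.0059 and 0.012). The 5 dendritic cell markers summed to 38.1 to 49.8, 49.5 to 69.7 and 29.0 to 35.3 CPM. Of these, Itgax was at 39.5, 39.0 and 21.0 CPM, Zbtb46 at 1.57, 15.6 and 8.84 CPM and Xcr1 at 1.54, 4.78 and 1.82 CPM on average. The 5 monocyte and macrophage markers summed to 18.2 to 23.0, 8.18 to 15.0 and 6.07 to 12.5 CPM, nearly all of it Ly6c2, at 18.5, 9.58 and 9.10 CPM on average. Mouse NK cells are known to express Itgax and Ly6c2 themselves. The 5 B cell markers summed to at most 4.19, 2.86 and 1.37 CPM, mostly Cd79b, and the 5 granulocyte markers to at most 2.68, 2.30 and 0.664 CPM, mostly Cpa3. The erythroid markers reached at most 0.123 CPM in sum. Some defining markers were at or near 0: S100a9 had 0 reads in every sample, and Cd4, Cd8a, Cd8b1, Ms4a1, Pax5, Adgre1 and S100a8 stayed at or under 0.193 CPM. Others were higher: in their highest sample Cd3e reached 1.49, Cd5 1.12, Cd14 1.92, Lyz2 0.803 and Cd79a 0.771 CPM. Cd14 was lower in YFP+ than in unstimulated samples (-1.84, limma adjusted p = 0.0032). The part of other cells in the results below was not tested. In bulk RNA a lower level can come from fewer cells that hold a transcript or from less of it per cell, and these cannot be told apart.

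Stimulation was accompanied by higher Dusp2, Dusp4, Spry1 and Spry2 and lower Dusp10 and Spred2, whether or not the cells had the reporter signal. YFP+ cells differed from YFP- cells in having more Dusp2 and Spry1 and less Dusp1. In YFP- against unstimulated samples 6 of 10 genes passed an adjusted p of 0.05 in limma, 4 higher and 2 lower, against 51.1% of all genes tested (30.2% higher and 20.9% lower). In YFP+ against unstimulated samples 8 of 10 passed, 4 higher and 4 lower, against 60.8% of all genes (27.5% higher and 33.3% lower). In YFP+ against YFP- samples 3 of 10 passed, 2 higher and 1 lower, against 21.8% of all genes (3.28% higher and 18.5% lower). The counts of 6, 8 and 3 of 10 are near these shares and do not set the 10 genes apart.

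The same 6, 8 and 3 genes were those whose 2 groups of 4 samples did not overlap. Over all genes tested, 52.7%, 54.7% and 22.1% did not overlap in the same order of comparisons. Full separation of 4 against 4 samples fixes the 2-sided exact permutation p at 0.0286, the smallest of 70 splits, so this p adds nothing to the separation. The median difference of the 10 genes in log2 CPM was -0.10 and -0.05 in the comparisons of YFP- and YFP+ with unstimulated samples and 0.09 between YFP+ and YFP-. The medians of all genes tested were 0.14, -0.03 and -0.19. Of all calls in YFP+ against YFP-, 15.1% were higher with the deposited scaling, 37.8% when trimmed-mean scaling was used and 50.2% when each sample was centred on its median. None of the 17 calls on the 10 genes changed direction under any scaling. When all 55487 features were tested without a filter, 5, 8 and 0 of the 10 genes passed in the same order, against 9.34%, 13.2% and 2.85% of all features. Dusp10 no longer passed in YFP- against unstimulated, nor did Dusp2, Spry1 and Dusp1 in YFP+ against YFP-. In that limma fit these last 3 had an unadjusted p under 0.05.

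**Figure D1:**
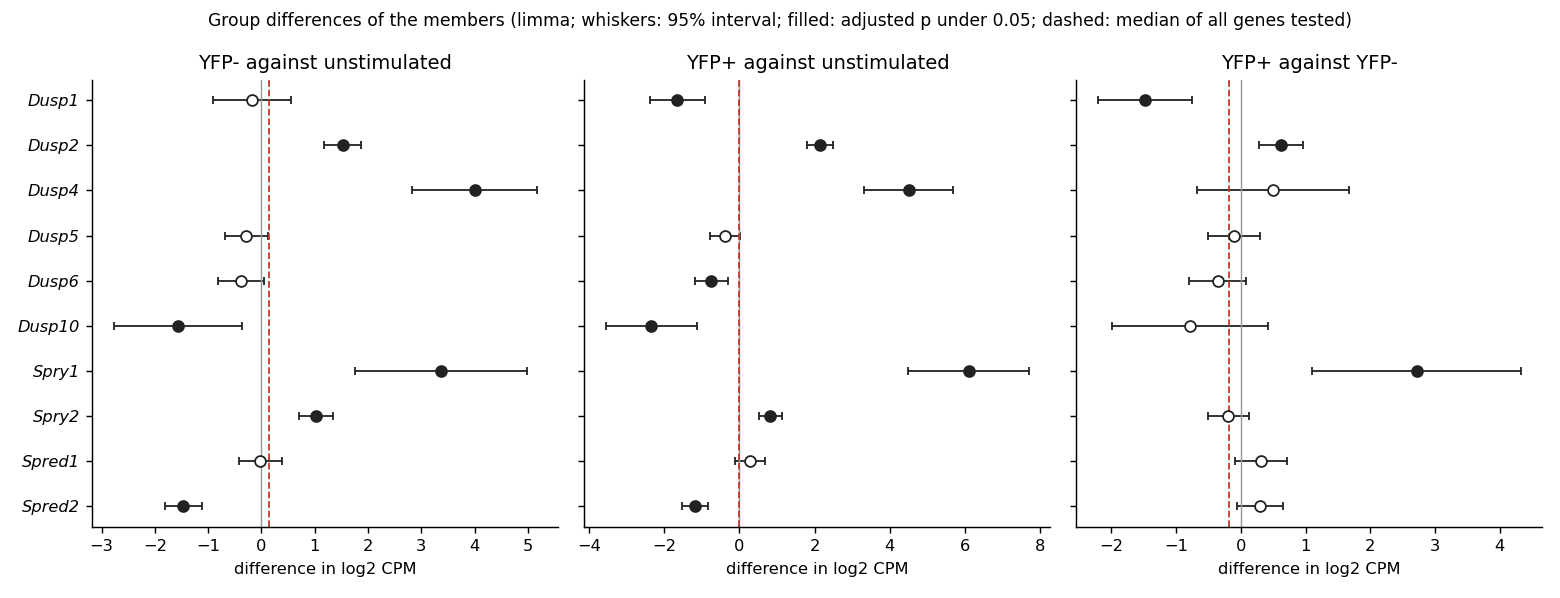
Difference in log2 CPM for each of the 10 genes in the 3 comparisons; points are limma estimates, whiskers 95% intervals, filled points have an adjusted p under 0.05, and the dashed line is the median of all genes tested. Dusp4 and Spry1 rose most in both comparisons with unstimulated cells, and Dusp1 lies on the lower side and Dusp2 and Spry1 on the higher side in YFP+ against YFP-.

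Dusp2 (ENSMUSG00000027368; GRCm38 chromosome 2, 127336159 to 127338376, plus strand) encodes a nuclear phosphatase known mainly from blood cells, where it acts on ERK and p38. Its level was 39.5, 51.9, 46.0 and 53.3 CPM in unstimulated samples, 147, 128, 143 and 129 CPM in YFP- samples and 155, 197, 239 and 265 CPM in YFP+ samples. The 3 groups did not overlap: every YFP- sample was above every unstimulated one, and every YFP+ sample was above every YFP- one. The mean rose from 47.7 ± 6.33 CPM (SD, n = 4) to 137 ± 9.68 and 214 ± 48.1 CPM. In limma YFP- exceeded unstimulated samples by 1.53 in log2 (SE 0.16, adjusted p = 5.8e-06) and YFP+ exceeded them by 2.15 (adjusted p = 9.9e-08). YFP+ exceeded YFP- samples by 0.62 (SE 0.16, limma adjusted p = 0.0138), a 1.54-fold difference, and lay 0.81 above the median change of all genes. Within labels the YFP+ excess was 0.08, 0.63, 0.74 and 1.04 in log2, so it was higher in 4 of 4 labels but small in f2.

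Dusp4 (ENSMUSG00000031530; chromosome 8, 34807297 to 34819894, plus strand) encodes a nuclear phosphatase of ERK and JNK. Unstimulated samples had 0.157, 1.0, 1.1 and 0.185 CPM, or 6, 38, 44 and 6 reads, with f2 and m4 well below m2 and m3. YFP- samples had 5.76, 10.6, 6.17 and 6.57 CPM and YFP+ samples 8.95, 14.0, 7.10 and 11.0 CPM. Every stimulated sample exceeded every unstimulated one, while the YFP- and YFP+ ranges overlapped. Dusp4 rose by 4.0 in log2 in YFP- (SE 0.55, limma adjusted p = 5.0e-05) and by 4.50 in YFP+ samples (limma adjusted p = 8.8e-06). The size of this rise depends on the small number added before the logarithm: with 1 CPM added it was 2.38 and 2.83, still past the threshold. Between YFP+ and YFP- the difference was 0.50 with a 95% interval of -0.68 to 1.67 (limma adjusted p = 0.55), with a higher value in YFP+ in 4 of 4 labels.

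Dusp1 (ENSMUSG00000024190; chromosome 17, 26505590 to 26562128, minus strand) encodes an inducible nuclear phosphatase that acts on p38, JNK and ERK and is a textbook early response gene. It was at 11.6, 11.5, 10.7 and 12.5 CPM in unstimulated samples. YFP- samples had 8.35, 18.9, 8.23 and 8.48 CPM, and YFP+ samples had 2.43, 7.78, 3.34 and 2.83 CPM. Every YFP+ sample was below every sample of the other groups, although m2, the highest of both stimulated groups, came close to the lowest YFP- sample. In YFP- samples 3 of 4 were under the unstimulated range and m2 was above it. The limma difference of YFP+ from YFP- samples was -1.48 in log2 (SE 0.34, adjusted p = 0.0069), or 1.29 below the median change of all genes. The differences within labels were -1.77, -1.28, -1.30 and -1.58, lower in 4 of 4. Without the YFP- sample m2 the estimate was -1.19 (limma adjusted p = 0.021). YFP- did not pass against unstimulated samples, at -0.18 with a 95% interval of -0.91 to 0.55 (limma adjusted p = 0.68), and at -0.47 without m2 (limma adjusted p = 0.23). YFP+ against unstimulated gave -1.66 (limma adjusted p = 0.00077).

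The annotated Dusp1 gene shares exon sequence with Ergic1, a protein-coding gene on the opposite strand. Whether reads were counted by strand is not given in the sources used here, so reads of the shared stretch cannot be assigned with certainty. Ergic1 ranged over 33.2 to 48.0, 33.3 to 52.7 and 22.8 to 51.9 CPM in the unstimulated, YFP- and YFP+ groups, and these 3 ranges overlapped. Dusp5 and Spry1 also share exon sequence with opposite-strand transcripts, AC137853.2 and Gm42922, whose mean levels over all samples were 0.215 and 0.0198 CPM.

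Dusp5 (ENSMUSG00000034765; chromosome 19, 53529109 to 53542431, plus strand) encodes a nuclear phosphatase selective for ERK. Its level was 96.8, 96.1, 90.9 and 115 CPM in unstimulated samples, 94.0, 67.8, 93.4 and 74.4 in the YFP- group and 54.6, 66.5, 93.5 and 96.4 CPM in the YFP+ group. The 3 groups overlapped, and the spread was widest in YFP+ samples, where f2 and m2 were low. No comparison passed: limma gave -0.28 (95% interval -0.68 to 0.11, adjusted p = 0.22) for YFP- and -0.39 (-0.79 to 0.00, adjusted p = 0.081) for YFP+ against unstimulated. YFP+ against YFP- gave -0.11 (-0.51 to 0.29, limma adjusted p = 0.71). YFP+ against unstimulated passed without the YFP+ sample m3 (-0.49, limma adjusted p = 0.032) or m4 (-0.51, limma adjusted p = 0.034), and with ribosomal-like features left out of the totals (-0.58, limma adjusted p = 0.039).

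**Figure D2:**
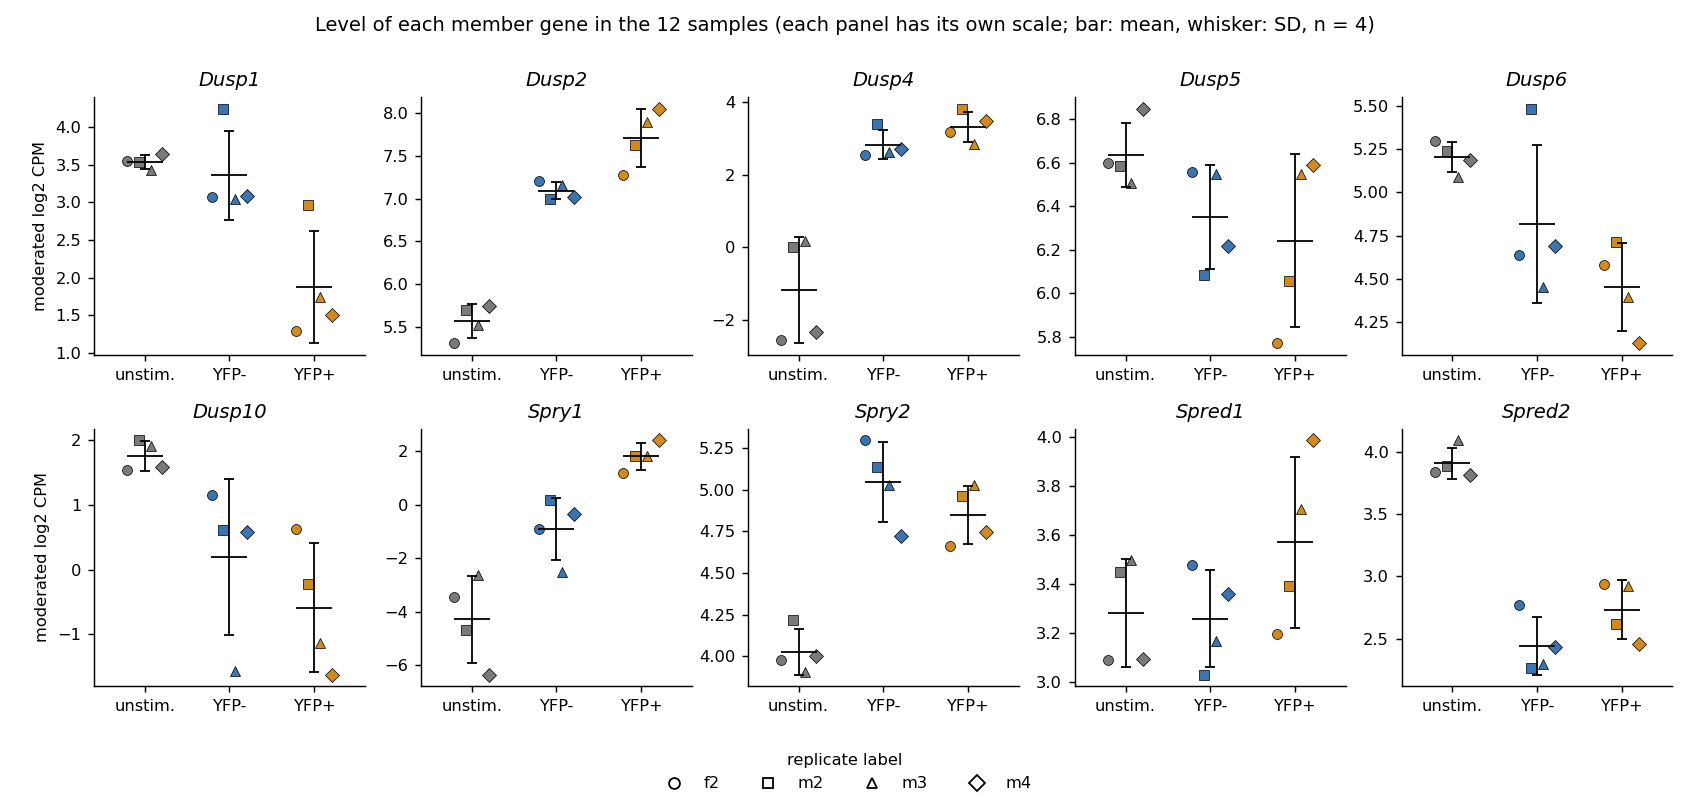
Moderated log2 CPM of each gene in the 12 samples, with the replicate label as the marker shape, the mean as a bar and the SD as a whisker (n = 4 per group); each panel has its own scale. The 3 groups separate fully for Dusp2, and for Dusp1 the YFP- sample m2 stands above the other 3 of its group.

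Dusp6 (ENSMUSG00000019960; chromosome 10, 99263231 to 99267489, plus strand) encodes the cytoplasmic, ERK-directed phosphatase. It was at 39.3, 37.7, 34.1 and 36.4 CPM in unstimulated samples, 24.9, 44.6, 21.9 and 25.8 in the YFP- group and 23.9, 26.2, 21.0 and 17.5 CPM in the YFP+ group. All YFP+ samples were below all unstimulated ones. In YFP- samples, f2, m3 and m4 were also below that range, but m2 was above it. Dusp6 fell by 0.75 in log2 in YFP+ against unstimulated samples (SE 0.20, limma adjusted p = 0.0054). YFP- against unstimulated gave -0.39 (95% interval -0.82 to 0.05, limma adjusted p = 0.12) and -0.61 without the YFP- sample m2 (limma adjusted p = 0.0059). It also passed with each sample centred on its median, with quantile normalization and with ribosomal-like features left out. YFP+ against YFP- gave -0.36 (-0.79 to 0.07, limma adjusted p = 0.22), lower in 4 of 4 labels. The YFP- sample m2 was thus the highest of its group for Dusp1, Dusp4, Dusp6 and Spry1.

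Dusp10 (ENSMUSG00000039384; chromosome 1, 184013302 to 184075636, plus strand) encodes a phosphatase of p38 and JNK. Levels were low, at 2.91, 4.0, 3.74 and 2.99 CPM in unstimulated samples, 2.21, 1.52, 0.323 and 1.49 in the YFP- group and 1.53, 0.848, 0.442 and 0.311 CPM in the YFP+ group. Every stimulated sample was below every unstimulated one, and the stimulated groups overlapped. Dusp10 fell by 1.57 in log2 in YFP- (SE 0.56, limma adjusted p = 0.032) and by 2.35 in YFP+ samples (limma adjusted p = 0.0024). The YFP- call was lost without unstimulated m2 (limma adjusted p = 0.071), m3 (0.068) or m4 (0.052), and without YFP- m3 the difference was -0.98 (limma adjusted p = 0.086). It was also lost without the filter on low values (limma adjusted p = 0.21). With 1 CPM added before the logarithm the differences were -0.95 and -1.35, both past the threshold. YFP+ against YFP- gave -0.78 (95% interval -1.99 to 0.43, limma adjusted p = 0.35) and -1.37 without YFP- m3 (limma adjusted p = 0.045).

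Spry1 (ENSMUSG00000037211; chromosome 3, 37639947 to 37644598, plus strand) encodes a Sprouty protein, an inhibitor of ERK signalling downstream of receptor tyrosine kinases. It was close to undetected in unstimulated cells, where the 4 libraries held 3, 1, 6 and 0 reads. YFP- samples held 23, 55, 7 and 38 reads, or 0.519, 1.11, 0.161 and 0.775 CPM. YFP+ samples held 111, 193, 127 and 171 reads, or 2.27, 3.56, 3.51 and 5.32 CPM. The groups were in the same order in all labels and did not overlap, though the YFP- sample m3, at 0.161 CPM, was next to the highest unstimulated sample at 0.151 CPM. Pooled over each group, 10, 123 and 602 reads gave 0.0674, 0.661 and 3.51 CPM.

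The limma difference of Spry1 was 3.38 in log2 (SE 0.75, adjusted p = 0.0021) for YFP- and 6.09 (adjusted p = 9.9e-06) for YFP+ against unstimulated. These sizes rest on very few unstimulated reads, and with 1 CPM added they were 0.59 and 2.10 (limma adjusted p = 0.024 and 8.3e-07). With quantile normalization the YFP- difference was 1.47 and did not pass (limma adjusted p = 0.15). YFP+ exceeded YFP- samples by 2.72 (SE 0.75, limma adjusted p = 0.019), and by 1.5 with 1 CPM added (limma adjusted p = 0.00017). Within labels the excess was 2.10, 1.66, 4.34 and 2.76. The call was lost without the YFP- sample m3 (2.18, limma adjusted p = 0.053) and without the YFP+ sample m4 (2.52, limma adjusted p = 0.061). It was also lost without the filter on low values. Spry1 passed that filter through its YFP+ samples, since outside them only the YFP- sample m2 was above 1 CPM. The call of higher YFP+ values thus comes from the group that admitted the gene.

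Spry2 (ENSMUSG00000022114; chromosome 14, 105891947 to 105896819, minus strand), a second Sprouty gene, was well expressed before stimulation. It was at 15.7, 18.6, 15.0 and 16.0 CPM in unstimulated samples, 39.3, 35.2, 32.7 and 26.4 in the YFP- group and 25.3, 31.2, 32.7 and 26.8 CPM in the YFP+ group. Both stimulated groups lay above all unstimulated samples and overlapped with each other. Spry2 rose by 1.02 in log2 in YFP- (SE 0.15, limma adjusted p = 7.8e-05) and by 0.82 in YFP+ samples (limma adjusted p = 0.00026), or 2.03-fold and 1.77-fold. Between YFP+ and YFP- the difference was -0.20 (95% interval -0.51 to 0.12, limma adjusted p = 0.37), and 0.065 with each sample centred on its median.

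Spred1 and Spred2 encode Sprouty-related proteins that recruit neurofibromin to the membrane and thereby hold back Ras. Spred1 (ENSMUSG00000027351; chromosome 2, 117121374 to 117182279, plus strand) was at 8.50, 10.9, 11.3 and 8.51 CPM in unstimulated samples, 11.1, 8.15, 8.96 and 10.2 in the YFP- group and 9.14, 10.5, 13 and 15.8 CPM in the YFP+ group. All 3 groups overlapped, and the highest values were in YFP+ m3 and m4. No comparison of Spred1 passed in limma: YFP- against unstimulated gave -0.02 (95% interval -0.43 to 0.38), YFP+ against unstimulated 0.29 (-0.12 to 0.69) and YFP+ against YFP- 0.31 (-0.09 to 0.72). With trimmed-mean scaling YFP+ against unstimulated was 0.42 and passed (limma adjusted p = 0.044).

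Spred2 (ENSMUSG00000045671; chromosome 11, 19924375 to 20024026, plus strand) was at 14.3, 14.8, 17.1 and 14.1 CPM in unstimulated samples, 6.79, 4.78, 4.91 and 5.38 in the YFP- group and 7.64, 6.14, 7.57 and 5.48 CPM in the YFP+ group. All 8 stimulated samples lay below all unstimulated ones, with a gap from 7.64 to 14.1 CPM. It fell by 1.47 in log2 in YFP- (SE 0.16, limma adjusted p = 8.7e-06) and by 1.18 in YFP+ samples (limma adjusted p = 2.9e-05). YFP+ samples were above YFP- in 4 of 4 labels, by 0.29 (95% interval -0.06 to 0.64, limma adjusted p = 0.22). This difference passed with each sample centred on its median (0.56, limma adjusted p = 0.029) and with quantile normalization (0.60, limma adjusted p = 0.019).

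To compare levels between genes, CPM were divided by the summed exon length of each gene in kb. In unstimulated cells the order was Dusp5 (40.3 ± 4.29 CPM per kb, SD, n = 4), Dusp2 (23.8 ± 3.16), Dusp6 (11.8 ± 0.710), Spry2 (7.82 ± 0.763), Dusp1, Spred2, Spred1, Dusp10, Dusp4 and Spry1. Neighbours overlapped in range only for Dusp1 with Spred2 and for Spred1 with Dusp10. In YFP- samples Dusp2 came before Dusp5, at 68.3 ± 4.83 against 33.3 ± 5.39 CPM per kb, followed by Spry2, Dusp6, Dusp1, Dusp4, Spred1, Spred2, Dusp10 and Spry1. There Spry2 overlapped with Dusp6, Dusp1 with Dusp4, Spred1 with Spred2, and Dusp10 with Spry1. In YFP+ samples Dusp2 was at 107 ± 24.0 and Dusp5 at 31.4 ± 8.28 CPM per kb, followed by Spry2, Dusp6, Dusp4, Spred1, Spred2, Spry1, Dusp1 and Dusp10. The ranges of Spred1, Spred2, Spry1 and Dusp1 overlapped from each to the next.

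The leading transcript thus was Dusp5 in unstimulated and Dusp2 in stimulated cells. Of the summed level per length of the 10 genes, Dusp5 held 43.2 ± 2.42% (SD, n = 4), 24.4 ± 2.98% and 18.4 ± 1.65% in the unstimulated, YFP- and YFP+ groups. Dusp2 held 25.4 ± 2.06%, 50.2 ± 2.10% and 62.9 ± 2.44%. The sum itself was 93.3 ± 6.65, 136 ± 9.61 and 169 ± 32.1 CPM per kb. Shares of a sum move together, so the lower share of Dusp5 does not measure its level. That level was 40.3, 33.3 and 31.4 CPM per kb, with the tests given above. Dusp6 held 12.7 ± 1.19%, 6.91 ± 2.52% and 4.39 ± 1.47%, and Dusp1 held 3.76 ± 0.165%, 2.45 ± 1.19% and 0.751 ± 0.479%.

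**Figure D3:**
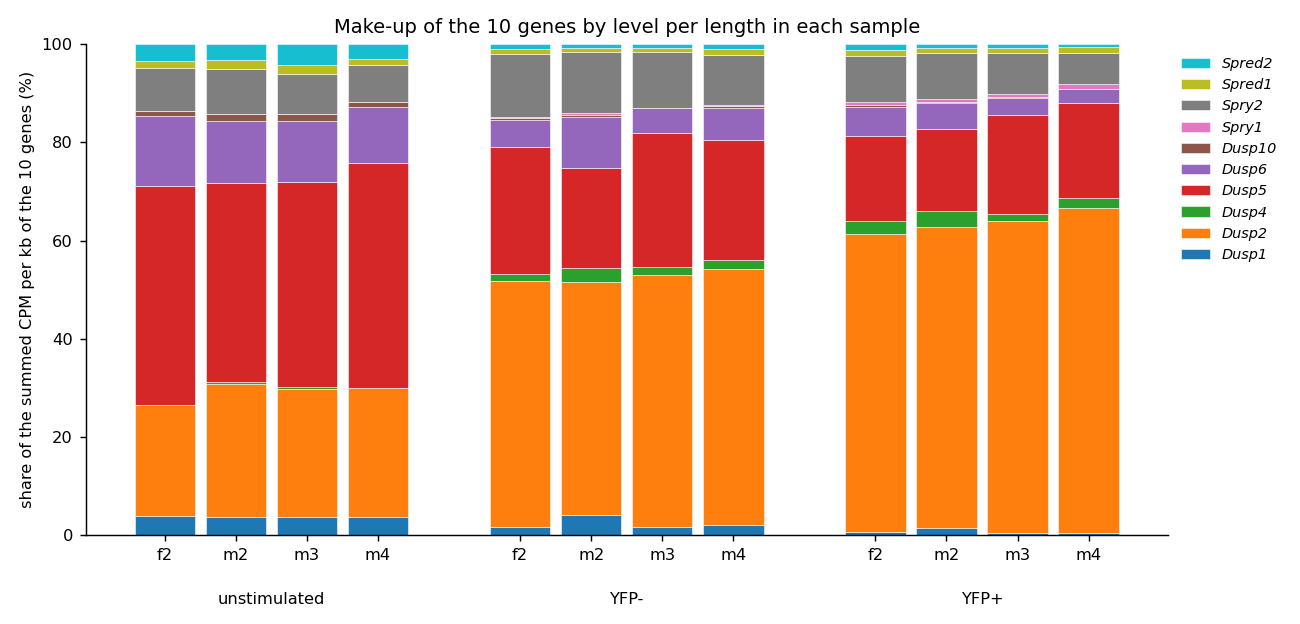
Share of each gene in the summed CPM per kb of the 10 genes, 1 bar per sample, in the order f2, m2, m3 and m4 within each group. Dusp5 takes 40.6 to 45.8% in unstimulated samples, and Dusp2 takes 47.3 to 52.1% in the YFP- group and 60.7 to 66.1% in the YFP+ group.

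The promoters of 9 of the 10 genes were matched by symbol in a RefSeq table for GRCm38.p6 that holds 250 bases before and 50 after each start site. Both strands were searched for 7 motifs of factors that act downstream of MAP kinases, cAMP or calcium, or that bind many promoters. Stretches upstream of 4 genes with a match are printed below 5′ to 3′ on the strand of the gene, with the matched bases in capitals. Dusp2 and Dusp1 are shown because they passed between YFP+ and YFP-, Dusp5 as the leading transcript before stimulation and Spry2 as the Sprouty gene with the higher level. Dusp2 has a CACGTG E-box and an EGR motif (GCGNGGGCG), Dusp1 a cAMP response element (TGACGTCA) and the same E-box, Dusp5 a pair of adjoining CArG boxes of serum response factor, and Spry2 the NFAT core GGAAAA at 2 places.
Dusp2 (chr2:127336009-127336158, plus strand): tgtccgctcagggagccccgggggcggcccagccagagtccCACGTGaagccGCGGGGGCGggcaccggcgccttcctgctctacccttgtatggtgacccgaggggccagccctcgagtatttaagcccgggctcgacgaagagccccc
Dusp1 (chr17:26508523-26508622, minus strand): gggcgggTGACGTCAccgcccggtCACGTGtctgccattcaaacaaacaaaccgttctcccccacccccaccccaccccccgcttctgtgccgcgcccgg
Dusp5 (chr19:53528995-53529094, plus strand): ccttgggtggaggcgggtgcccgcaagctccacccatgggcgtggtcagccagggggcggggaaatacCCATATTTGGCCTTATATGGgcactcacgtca
Spry2 (chr14:105896820-105896969, minus strand): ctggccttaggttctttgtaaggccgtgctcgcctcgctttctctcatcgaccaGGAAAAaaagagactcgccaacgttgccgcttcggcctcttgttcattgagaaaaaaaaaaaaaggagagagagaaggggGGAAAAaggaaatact

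The stretches of Dusp2 and Spry2 end at the base before the RefSeq start site, and those of Dusp1 and Dusp5 end 51 bases before it. The printed Dusp5 stretch overlaps an exon of the opposite-strand transcript AC137853.2. Counted from the start site, the cAMP response element of Dusp1 begins at -143 and its E-box at -126, the E-box of Dusp2 at -109 and its EGR motif at -98. The CArG boxes of Dusp5 begin at -82 and -72, and the NFAT cores of Spry2 at -96 and -16. Spred2 has 1 NFAT core, on the opposite strand at -137. No match overlapped another. Among 32851 promoters of the same length, 1.79% held the cAMP response element, 1.63% the CArG box, 5.55% the EGR motif, 7.15% the E-box and 23.4% the NFAT core. The AP-1 motif TGANTCA, found in 7.81% of promoters, and the ETS motif CCGGAAG, found in 8.86%, were in none of the 9. A match describes letters in this window, and binding was not measured in these samples.

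The remaining MAP kinase phosphatases gave a mixed picture beside the 10 genes. Of 4 listed, 3 were tested, and Dusp8 was at or under 0.587 CPM in every sample. Dusp7, a cytoplasmic ERK phosphatase like Dusp6, was at 16.2 ± 0.648 CPM (SD, n = 4) in unstimulated samples, 5.04 ± 1.0 in the YFP- group and 4.25 ± 0.423 in the YFP+ group. It fell by 1.70 in log2 in YFP- and by 1.93 in YFP+ samples (limma adjusted p = 2.6e-06 and 2.9e-07). Dusp16, which acts on JNK and p38 like Dusp10, rose by 1.59 in YFP- (limma adjusted p = 7.1e-05), from 1.43 ± 0.381 to 4.30 ± 0.912 CPM, and was also higher in YFP+ samples. Dusp9 was higher in YFP+ than in unstimulated samples by 1.82 (limma adjusted p = 0.0036) at a low level, 1.11 ± 0.0972 against 0.372 ± 0.289 CPM. It passed the filter on low values through its YFP+ samples alone, with at most 0.789 CPM in unstimulated and 0.709 CPM in YFP- samples. The higher YFP+ values of Dusp9 thus come from the group that admitted the gene. Between YFP+ and YFP- 0 of the 3 passed in limma, beside 21.8% of all genes, and 1, Dusp9, had an unadjusted p under 0.05. Members of one enzyme class therefore changed in opposite directions after stimulation: Dusp10 fell and Dusp16 rose.

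Of 9 atypical dual-specificity phosphatases, small enzymes without the kinase-binding domain, 3 were higher and 3 lower in YFP-, and 4 and 4 in YFP+ against unstimulated samples. Over all genes tested, 51.1% and 60.8% were called in these comparisons. Among the 9 phosphatases, Dusp12 rose most in both (1.42 and 1.43, limma adjusted p = 2.7e-05 and 1.2e-05). Dusp23 fell by 1.06 in YFP- (limma adjusted p = 0.00038) and Dusp28 fell by 1.22 in YFP+ samples (limma adjusted p = 0.00012). Dusp28 was also the only one called between YFP+ and YFP-, at -0.66 (limma adjusted p = 0.031), beside 21.8% of all genes. That call was lost under 5 alternatives that keep all samples and when any of 6 of the 8 samples was left out.

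Among 14 other negative regulators of Ras and ERK, 11 were tested. In YFP- samples 4 were higher and 2 lower than in unstimulated samples, in YFP+ samples 3 and 3, and between YFP+ and YFP- 0 and 3 (0 and 4 at an unadjusted p under 0.05 in limma). The last split depends on the processing. It was 1 and 2 with each sample centred on its median, with quantile normalization or with trimmed-mean scaling, and 0 and 1 without the filter on low values. The median differences of the 11 genes were 0.08, 0.00 and -0.20, beside 0.14, -0.03 and -0.19 for all genes tested, of which 51.1%, 60.8% and 21.8% were called. Errfi1, an inhibitor of the EGF receptor family, rose by 1.62 in YFP- and by 1.20 in YFP+ samples (limma adjusted p = 1.5e-06 and 7.6e-06), from 37.3 ± 4.82 CPM (SD, n = 4) to 115 ± 17.0 and 85.8 ± 10.7. Rasa3, a GTPase-activating protein for Ras-family proteins, fell most in all 3 comparisons, from 43.1 ± 2.90 to 9.57 ± 2.71 and 3.60 ± 1.04 CPM. Its differences were -2.21, -3.63 and -1.42 (limma adjusted p = 7.7e-06, 3.7e-08 and 0.00099). Spry4, named after its values were seen as the closest expressed relative of Spry1 and Spry2, was at 11.3 ± 1.24, 12.0 ± 1.52 and 11.3 ± 1.33 CPM in the 3 groups.

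Of the 19 genes of the ERK cascade itself, 5, 7 and 4 passed in YFP- and YFP+ against unstimulated and in YFP+ against YFP-, beside 51.1%, 60.8% and 21.8% of all genes. In YFP- against unstimulated samples 0 were higher and 5 lower in limma (3 and 5 at an unadjusted p under 0.05), in YFP+ 2 and 5, and in YFP+ against YFP- 1 and 3. Over all genes 30.2% were higher and 20.9% lower, then 27.5% and 33.3%, and 3.28% and 18.5%. The split depends on the processing. The fit of only the 8 samples compared gave 3 and 5 in YFP- against unstimulated samples. In YFP+ against YFP-, centring each sample on its median gave 3 and 3, and quantile normalization gave 1 and 2. The list medians were -0.04, -0.04 and -0.13, beside 0.14, -0.03 and -0.19 for all genes tested. Within the list Rasgrp2, a calcium-responsive exchange factor, fell most in each comparison, with differences of -2.74, -4.21 and -1.47 in log2 (limma adjusted p = 3.6e-05, 3.3e-07 and 0.010). Its call between YFP+ and YFP- was lost with quantile normalization (-0.92, limma adjusted p = 0.078) and without the filter on low values. Hras was higher in YFP+ than in YFP- samples by 0.59 (limma adjusted p = 0.039) and higher than in unstimulated samples by 0.80 (limma adjusted p = 0.0021). The first of these was lost without YFP- f2, m2 or m4 and without YFP+ m2, m3 or m4, with values from 0.47 to 0.61. That call was also lost in the fit of only the 8 samples compared, without the filter on low values and with ribosomal-like features left out. Mapk3, which encodes an ERK kinase and was named after its values were seen, was at 71.6 ± 3.03 CPM (SD, n = 4) in unstimulated samples, 25.8 ± 7.39 in the YFP- group and 10.3 ± 2.26 in the YFP+ group. Its differences in the 3 comparisons were -1.52, -2.82 and -1.30 (limma adjusted p = 4.7e-05, 8.1e-08 and 0.00062).

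Of 18 genes of the p38, JNK and ERK5 cascades, 16 were tested. In YFP- samples 5 were higher and 3 lower than in unstimulated samples, in YFP+ samples 6 and 4, and between YFP+ and YFP- 0 and 1 in limma (0 and 3 at an unadjusted p under 0.05). Over all genes tested, 51.1%, 60.8% and 21.8% were called. The list medians were 0.22, -0.12 and -0.12, beside 0.14, -0.03 and -0.19 for all genes tested. Mapk11, a p38 kinase, rose by 5.83 in YFP- and 5.29 in YFP+ samples (limma adjusted p = 2.6e-05 and 3.0e-05), from at most 6 reads in any unstimulated library to 2.71 ± 0.490 and 2.40 ± 1.79 CPM (SD, n = 4). Map3k1 fell by 1.22 in YFP- (limma adjusted p = 9.2e-05) and Map2k6 fell by 1.41 in YFP+ samples (limma adjusted p = 0.025). The Map2k6 call was lost without unstimulated f2 or m2 and without YFP+ m3 or m4, with values from -1.29 to -0.98. It was also lost in the fit of only the 8 samples compared, without the filter on low values and with quantile normalization. Map3k8, a kinase upstream of MEK, fell by 1.34 between YFP- and YFP+ samples (limma adjusted p = 0.0097), from 15.9 ± 5.44 to 6.64 ± 3.25 CPM. This call was lost without the filter on low values.

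All 16 listed genes that respond to ERK were tested. In YFP- samples 9 were higher and 2 lower than in unstimulated samples, beside 30.2% and 20.9% of all genes. In YFP+ samples 7 were higher and 6 lower, beside 27.5% and 33.3% of all genes. Between YFP+ and YFP- 2 were higher and 8 lower at an unadjusted p under 0.05 in limma, and 0 and 6 at an adjusted one, beside 3.28% of all genes called higher and 18.5% called lower. The 6 were Egr1, Egr3, Fos, Fosl2, Jun and Ier2, which encode early transcription factors, apart from Ier2, an early response gene. The split depends on the scaling: 3 were higher and 4 lower with each sample centred on its median, 3 and 5 with quantile normalization and 2 and 5 with trimmed-mean scaling, with Egr1, Egr3, Fos and Jun lower under each. The medians of the list were 0.74, 0.37 and -0.41, beside 0.14, -0.03 and -0.19 for all genes tested. Egr2, an early growth response factor, rose by 4.59 in YFP- samples (limma adjusted p = 4.9e-08), from 11.1 ± 0.923 to 285 ± 127 CPM (SD, n = 4). Ccnd1, which encodes cyclin D1, rose by 4.64 in YFP+ samples (limma adjusted p = 1.1e-06). Egr3 fell by 3.32 between YFP- and YFP+ samples and by 2.59 against unstimulated (limma adjusted p = 3.5e-07 and 5.0e-08), with 15.9 ± 3.23, 26.2 ± 3.13 and 2.63 ± 0.479 CPM in the 3 groups. Ier3 fell by 1.45 in YFP- samples (limma adjusted p = 3.4e-05).

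**Figure D4:**
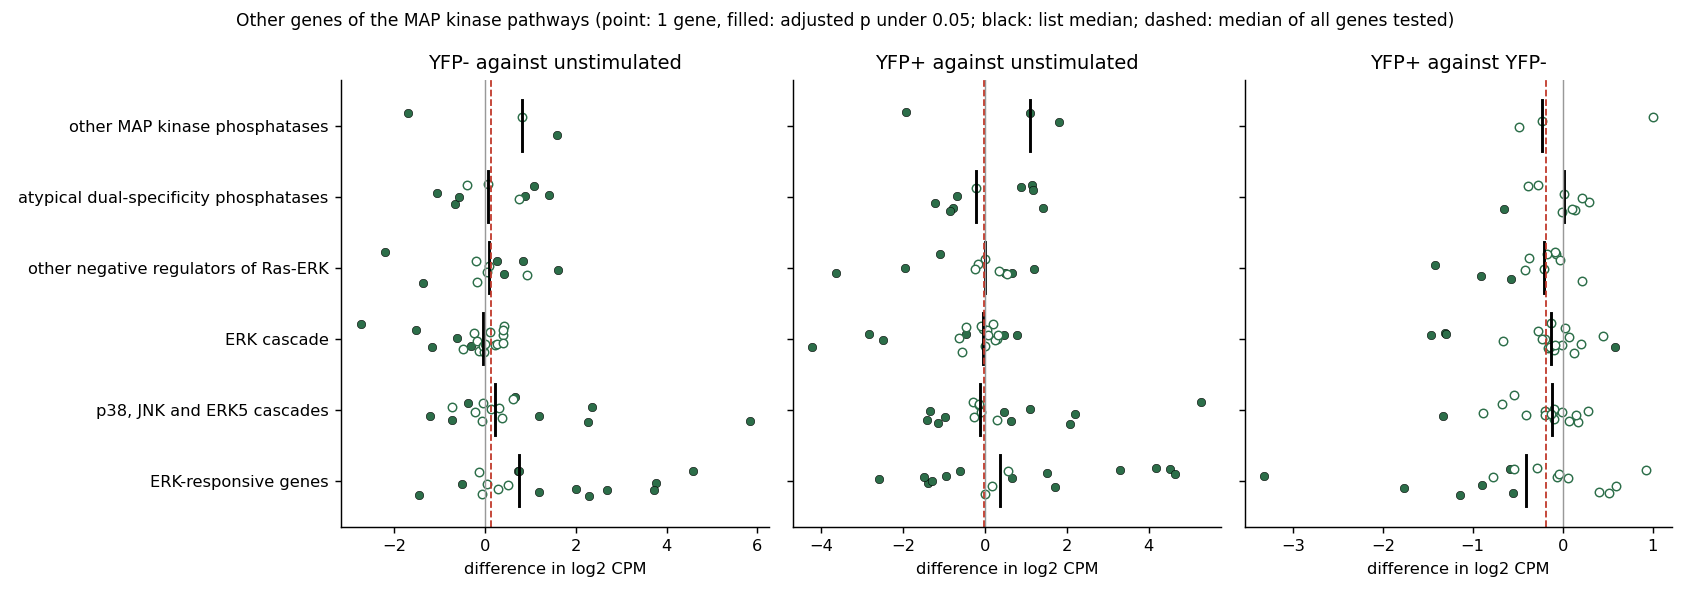
Differences in log2 CPM of the tested genes of 6 lists in the 3 comparisons; each point is 1 gene, filled where the limma adjusted p is under 0.05, with the list median in black and the median of all genes tested dashed. In YFP+ against YFP- the 6 filled points of the ERK-responsive genes all lie below 0 under the deposited scaling, and the single filled point above 0 is Hras.

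For each of the 10 genes, the gene with the most similar profile was sought among 8122 candidates as the smallest root mean square difference of mean-centred log2 CPM over the 12 samples. The closest were Itgav for Dusp2 (0.13), Rp9 for Dusp1 (0.30), Suds3 for Dusp5 (0.11), Ak3 for Dusp6 (0.12), Jade2 for Spry2 (0.14), Srsf2 for Spred1 (0.09) and Mif for Spred2 (0.16). The distances were larger for the genes with few reads: Plk2 for Dusp4 (0.48), Nicn1 for Dusp10 (0.44) and Fkbp11 for Spry1 (0.89). This distance is not scaled to the spread of a gene, so a larger one does not show a less similar profile. The SD over the 12 samples was 2.163, 1.259 and 2.697 in log2 for Dusp4, Dusp10 and Spry1. It was 0.294 for Dusp5 and 0.27 for Spred1. Within the 10 genes the smallest distance was that of Dusp5 and Spred1, at 0.35, which is above the SD of either gene. The pair Dusp4 and Spry1 was 1.37 apart, which is below the SD of either gene. These distances therefore do not show which pair is more alike. Itgav, which encodes integrin alpha V, had differences of 1.5 for YFP- and 2.26 for YFP+ against unstimulated samples and 0.76 between them. Fkbp11, a peptidyl-prolyl isomerase gene, had 2.83, 4.85 and 2.03 in the same comparisons. These genes were chosen for their likeness in the same samples, so their differences are a description with no test.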

How the data were processed

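Per the labels' protocols, 10 ng of RNA went into SMARTer Ultra Low cDNA synthesis, followed by paired-end sequencing. The submitters' processing notes name bcl2fastq, STAR 2.7.9a, Subread, featureCounts 2.0.3 and GRCm38, with no roles. Expression came from a single table deposited by the authors, which holds moderated log2 CPM per gene for the 12 samples and no other values. Of 55774 lines, 287 repeats were dropped. Read counts and library totals were worked back from the deposited log2 values, which gave whole numbers in 100% of cases (largest error 5.15e-14), and CPM were computed from them. No 2 libraries of a group held counts that agree within sampling noise (smallest chi-square per degree of freedom 21.3), and whether their spread is technical is not known. Gene positions come from GENCODE M21 (99.5% of identifiers matched).

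The filter kept 12364 genes whose log2 CPM was over 0 in 4 samples or more. All 12 samples entered 1 fit in limma 3.58.1 (R 4.3.3) with an intensity trend, and Benjamini-Hochberg adjustment ran over all genes kept. Calls required an adjusted p under 0.05. The 10 genes and all lists were chosen with earlier results of these data known. Besides the 10 genes, the text names the called gene with the largest rise and fall of each list and comparison and the nearest profile of each gene; Spry4 and Mapk3 were named after their values were seen, and marker genes were named from the marker lists. The fit was also run on simulated reads with a single spread and changes in YFP+ only. That setting differs from these data, so the run does not measure how well the fit works on them. Floors of 3 reads cover counting error only. Intervals, shares and figures were made with numpy 2.4.6, pandas 2.3.3 and matplotlib 3.10.9 in Python 3.11.15.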

Additional observations from a re-analysis of the deposited data

Results flagged for a closer look

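One set of the 36 examined (the 10 genes, the library total and the share of ribosomal-like features, each in 3 groups) held a sample far from the others, where chance gives 1.8. Dusp1 in YFP- samples had a log2 CPM of 4.24 in m2 against 3.04 to 3.09 in f2, m3 and m4, a gap of 0.963 of the whole range, past Dixon's limit for 4 samples.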

How the results depend on the processing

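Each difference was recomputed under 18 alternatives. Of 534 values for the 10 genes, 504 kept their direction and their side of the threshold, 11 fell short of it, 11 newly passed it and 8 changed sign, and 17 of 30 differences were the same throughout. Testing all features without a filter gave 0 of 10 genes called in YFP+ against YFP-, where 55487 features are tested in place of 12364. Leaving out 1 sample gave 2 to 3, 5 to 7 and 8 to 9 genes called in YFP+ against YFP-, YFP- against unstimulated and YFP+ against unstimulated, while 15.5 to 25.8%, 44.8 to 50% and 57 to 63% of all genes were called. No difference that changed sign was past the threshold. In YFP+ against YFP- these were Dusp5 at 0.15 and Spry2 at 0.065 when centred on the median, Dusp5 at 0.043 with trimmed-mean scaling, and Suds3 at 0.058 when centred and 0.031 with quantile normalization. In YFP- against unstimulated Srsf2 was at -0.025 when centred, -0.12 with quantile normalization and -0.068 without ribosomal-like features. Leaving out 1 sample moved Dusp5 (YFP+ against YFP-) between -0.23 and 0.047, Spred1 (YFP- against unstimulated) between -0.097 and 0.052, Rp9 (YFP- against unstimulated) between -0.40 and 0.0095, and Jade2 (YFP+ against YFP-) between -0.063 and 0.13. The causes were not tested.

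With the replicate label as a block, 3, 6 and 8 of the 10 genes were called in YFP+ against YFP-, YFP- against unstimulated and YFP+ against unstimulated, the same numbers as without it, and 3098, 6682 and 7774 of all genes against 2691, 6321 and 7522. The labels do not say that a shared label means a shared animal. Correlations of same-label deviations were 0.05 to 0.37 for YFP+ with YFP-, -0.06 to 0.10 for YFP- with unstimulated and -0.04 to 0.38 for YFP+ with unstimulated, and not every sample correlated best with its own label. With quantile normalization 3 genes were higher and 3 lower in YFP- against unstimulated, in place of 4 and 2. A filter at log2 CPM above 2 left Dusp10 and Spry1 untested. Depth limits Spry1 in unstimulated libraries, which held at most 6 reads.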
